A study of Mus musculus with 12 samples.

Results

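LIGHT, encoded by Tnfsf14, is a ligand of the tumour necrosis factor superfamily. The comparison described here sets mouse 3T3-L1 cells made to overexpress it against control 3T3-L1 cells (labelled NC), both after beige differentiation. The members are the 6 differentiated libraries of the 12 in the series, 3 labelled control and 3 labelled LIGHT. The main comparison uses 4 of them, replicates 2 and 3 of each label, because Tnfsf14 contradicts the label of replicate 1 in both groups.

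3T3-L1 is an established line of mouse embryo fibroblasts that can turn into fat cells in culture. All libraries come from this line, and both differentiated groups had the same medium. They received dexamethasone (2 µg/ml), the phosphodiesterase inhibitor IBMX (0.5 mM), rosiglitazone (1 µM), triiodothyronine (1 nM), insulin (5 µg/ml) and indomethacin for 48 h, and then rosiglitazone, triiodothyronine and insulin alone. The undifferentiated cells, 3 libraries labelled control and 3 labelled LIGHT, did not have this cocktail. The control cells therefore received the glucocorticoid and the PPARγ agonist as well. The vector that carries LIGHT, its promoter, the number of clones and the day of harvest were not stated. Any other difference between the LIGHT and the control cells therefore cannot be told apart from LIGHT itself. Where an effect is named below, it means the difference between cells labelled LIGHT and control. Whether replicates were cultured separately is not stated either, so the p-values cover the spread among these libraries only, which may be technical.

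LIGHT binds the lymphotoxin β receptor (Ltbr) and the herpesvirus entry mediator (Tnfrsf14). At the lymphotoxin β receptor, the TRAF2, TRAF3 and cIAP complex that destroys the kinase NIK (Map3k14) is disarmed; NIK then acts through IKKα (Chuk), p100, the product of Nfkb2, is cut to p52, and p52 enters the nucleus with RelB. In fat precursors, NF-κB activity is known to oppose adipocyte differentiation, while PPARγ and C/EBPα drive it and PGC-1α, PRDM16 and UCP1 mark the heat-producing programme.

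Promoters of 4 genes that rose and that are textbook NF-κB targets are shown first, chosen because their window holds the NF-κB binding motif. The windows of Cxcl12, Birc3, Map3k14, Traf2 and Ltbr, which also rose, held no match. The sequences are the 250 bases upstream of a start site in RefSeq (GRCm38.p6), read 5′ to 3′ on the gene's strand. Capitals mark matches of the decameric κB consensus motif on either strand, and overlapping matches are merged.
Nfkb2, chr19:46304487-46304736, plus strand: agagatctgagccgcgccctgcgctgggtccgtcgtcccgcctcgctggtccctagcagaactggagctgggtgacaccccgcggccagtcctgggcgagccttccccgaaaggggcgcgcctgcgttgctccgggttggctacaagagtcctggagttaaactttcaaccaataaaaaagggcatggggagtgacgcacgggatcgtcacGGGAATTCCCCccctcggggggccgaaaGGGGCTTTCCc
Nfkbie, chr17:45555450-45555699, plus strand: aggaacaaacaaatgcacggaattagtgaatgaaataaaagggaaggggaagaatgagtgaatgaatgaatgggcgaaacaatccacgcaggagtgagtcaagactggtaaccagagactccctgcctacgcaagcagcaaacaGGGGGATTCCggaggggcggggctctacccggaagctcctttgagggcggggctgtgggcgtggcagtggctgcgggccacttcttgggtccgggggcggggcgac
Nfkbia, chr12:55492648-55492897, minus strand: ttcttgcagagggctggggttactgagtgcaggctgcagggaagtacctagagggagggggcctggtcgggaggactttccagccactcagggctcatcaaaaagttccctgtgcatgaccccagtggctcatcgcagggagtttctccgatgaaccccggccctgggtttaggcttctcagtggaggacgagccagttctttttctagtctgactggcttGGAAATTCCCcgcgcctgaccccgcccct
Cxcl10, chr5:92348890-92349139, minus strand: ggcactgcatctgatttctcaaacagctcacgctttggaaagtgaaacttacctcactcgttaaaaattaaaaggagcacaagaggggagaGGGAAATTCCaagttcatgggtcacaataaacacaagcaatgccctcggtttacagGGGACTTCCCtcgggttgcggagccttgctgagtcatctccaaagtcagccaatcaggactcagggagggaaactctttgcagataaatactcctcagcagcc
The Nfkb2 window held 4 matches over both strands, in 2 stretches. Nfkbie and Nfkbia, which encode the inhibitors IκBε and IκBα, had 1 match each, beginning 106 and 29 bases upstream of the start. Cxcl10 had 2 matches. Of 32851 RefSeq promoter windows of 300 bases (250 before to 50 after the start), 1480, or 4.51%, held the motif. Of the 26 members of the NF-κB and chemokine lists that rose after differentiation, 17 had a window, and the first window of 11 held a match. Among the list members with a window that did not rise, 7 of 16 had one. Over all tested genes with a window, it was 106 of 1484 among those that rose (7.14%) and 405 of 8573 among the others (4.72%). These lists were drawn up as NF-κB targets, so the shares describe the lists and carry no test. A match is a run of letters, not a measured binding site.

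Library totals ran from 16334079 to 19686675 expected counts, and 14812 to 15017 genes were listed per library. Levels are given as CPM, counts relative to library size scaled by the trimmed mean of M-values over all 12 libraries. A count of 0 allows up to 3 counts, or 0.152 to 0.184 CPM, which covers counting error only. The differentiated libraries had the adipocyte marker Adipoq at 1000 to 1449 CPM and the undifferentiated ones at 0.754 to 2.93 CPM. Ucp1, Prdm16 and Cidea, which mark beige cells, were nearly absent. Ucp1 had 1 count in the library labelled control 1, 2 counts in LIGHT 2 and 0 in the other 4 differentiated libraries. Prdm16 had 1 count in control 2 and 1 in LIGHT 2, and Cidea had 6 counts in control 3 and 3 in LIGHT 3. Other genes of the thermogenic list described below, such as Ppargc1a and Kcnk3, were expressed. The summed level of the 16 listed leukocyte markers was 8.08 to 9.38 CPM in the 6 differentiated libraries, and Adgre1, Cd3e, Cd3d, Ms4a1 and Tyrobp were listed in no library.

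Tnfsf14 checks the labels. Its expected counts were 113 in control 1, 0 in control 2 and 0 in control 3, against 0 in LIGHT 1, 148 in LIGHT 2 and 122 in LIGHT 3. The transcript was thus present in 1 of 3 libraries labelled control and absent from 1 of 3 labelled LIGHT. On the first principal component of the 6 differentiated libraries, which held 53.5% of the variance, control 1 lay at 30.3 beside LIGHT 2 and 3 at 28.1 and 26.4. LIGHT 1 lay at -28.7 beside control 2 and 3 at -29.5 and -26.6. The labels are kept throughout as given.

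Taken as labelled, 3 against 3, the comparison called no gene. With edgeR's quasi-likelihood test at an adjusted p of 0.05, 0 of 12993 genes (0.0%) passed, and the smallest adjusted p was 0.913. An unadjusted p under 0.05 was reached by 523 genes. DESeq2 called 1 gene, the ribosomal RNA gene Rn28s1, with 454 genes at an unadjusted p under 0.05, and limma-voom called 0, with 536. Nfkb2, Relb and Cxcl12, described below, illustrate the spread. Nfkb2 differed by 0.34 on the log2 scale (SE 0.27, adjusted p = 0.913), Relb by 0.34 (SE 0.25) and Cxcl12 by 0.28 (SE 0.30).

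Replicates 2 and 3, 2 against 2, gave a broad difference. Of 13150 genes tested, 1922 were higher with LIGHT (14.6%) and 2157 lower (16.4%) at an adjusted p of 0.05. Of the tested genes, 136 passed the filter on low counts only through LIGHT 2 and 3, and 16 of them were called higher. Another 140 passed it only through control 2 and 3, and 18 of them were called lower. Most changes were small: the median size among called genes was 0.40 on the log2 scale, and 221 rose and 237 fell by at least 1. The median over all tested genes was -0.01. The shares of all genes, 14.6% higher and 16.4% lower, are those to set beside each list count below. With scaling by library totals in place of the trimmed mean, 66.0% of the calls were higher against 47.1%. The 2 libraries of replicate 1 had no part in these calls. Over the 4079 called genes, the library labelled control 1 lay nearer to LIGHT 2 and 3 in 3706 (90.9%) and the library labelled LIGHT 1 nearer to control 2 and 3 in 3686 (90.4%). LIGHT 1 minus control 1 had the opposite sign in 3886 genes (95.3%). Where pairs of libraries are called separate below, this only describes 2 values against 2 and adds no evidence to the call. The share of all genes with separate pairs is not given.

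LIGHT itself had 0 CPM in control 2 and 3, and 7.81 and 7.47 CPM in LIGHT 2 and 3. Against 3 counts over the control pair, it was at least 88.9-fold higher; since this transcript chose the 4 libraries, its difference is a description, not a result. Ltbr, its receptor, had 118 and 124 CPM in control 2 and 3 and 171 and 174 in LIGHT 2 and 3. The pairs did not overlap, and Ltbr rose by 0.51 on the log2 scale (SE 0.06, adjusted p = 1.71e-06). The other receptor, Tnfrsf14, was barely present. Per transcript length its level was 0.72 to 1.65 FPKM over the 6 differentiated libraries, that of Ltbr 57.47 to 88.26 FPKM and that of Tnfsf14 4.57 and 4.31 FPKM in LIGHT 2 and 3. The difference in Tnfrsf14 was -0.31 on the log2 scale (SE 0.60, adjusted p = 0.74).

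Of the 16 receptors and TRAF adaptors listed, 14 were tested. Of these, 6 rose (42.9%, beside 14.6% of all genes), 2 fell (14.3%, beside 16.4%) and 6 did not pass. The median log2 fold change was 0.24 beside -0.01 over all genes. Traf2, an adaptor of the receptor complex, had 32.8 and 34.0 CPM in control 2 and 3 and 58.3 and 59.4 in LIGHT 2 and 3, a rise of 0.81 (SE 0.07). Map3k14, the kinase NIK, went from 11.4 and 10.7 CPM to 20.5 and 21.5, a rise of 0.92 (SE 0.11). Traf3, which holds NIK down, rose by 0.67 and Birc3, the ubiquitin ligase cIAP2, by 0.81. All of these pairs were separate. Ikbkb, the kinase of the canonical arm, rose by 0.40. Chuk (IKKα) fell by 0.40 and Traf6 by 0.50; the adjusted p for Chuk was 0.057 without control 2 and that for Traf6 was 0.0533 without LIGHT 3.

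All 6 tested members of the noncanonical NF-κB list rose, with a median of 0.96. The list has 14 members, and 8 were not tested. Ccl21a and Tnfsf11 were listed in no library. The targets Cxcl13, Ccl19, Madcam1, Tnfsf13b, Il7 and Icosl did not pass the filter on low counts. The list is not independent of the others: Map3k14 and Traf3 are also on the receptor list, Relb on the canonical list and Cxcl12 on the chemokine list. Nfkb2, the precursor of p52, had 86.4 and 95.7 CPM in control 2 and 3 (91.0 ± 6.52, SD, n = 2) and 182 and 184 in LIGHT 2 and 3 (183 ± 0.944, SD, n = 2). The 2 pairs were far apart, and the rise was 1.00 on the log2 scale (SE 0.07, adjusted p = 9.25e-09). The libraries labelled control 1 and LIGHT 1 had 186 and 98.7 CPM, each beside the pair of the other label. Relb, the partner of p52, had 26.5 and 25.5 CPM against 49.4 and 49.1 and rose by 0.92 (SE 0.10, adjusted p = 6.62e-07). Cxcl12, a chemokine that holds lymphocytes and progenitor cells, had 370 and 379 CPM against 756 and 760 and rose by 1.02 (SE 0.06, adjusted p = 2.5e-10). Enpp2, which makes lysophosphatidic acid, had 268 and 232 CPM against 548 and 572 and rose by 1.16. The plot of pathway genes by library shows the 4 groups side by side.

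**Figure D1:**
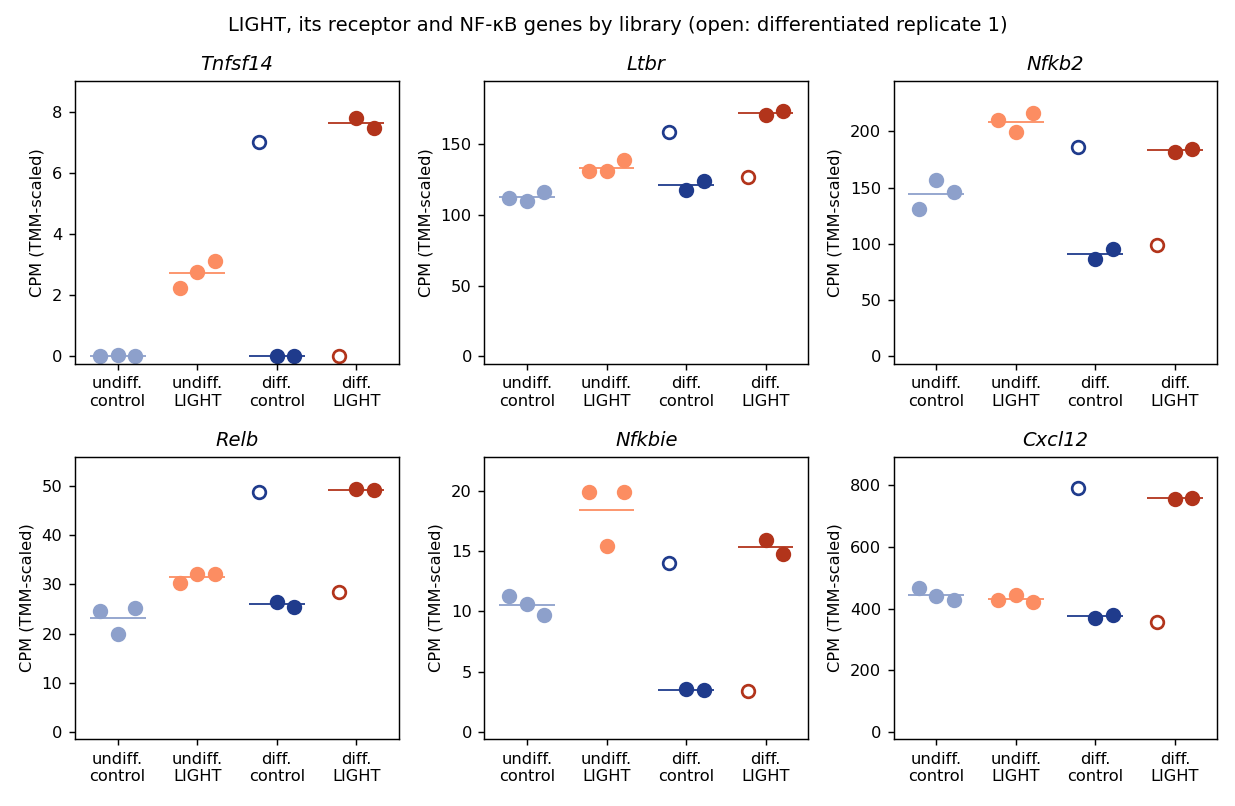
Level in CPM (linear axis) of 6 genes in the 12 libraries, by group; each point is 1 library, lines are means (replicates 2 and 3 only for the differentiated groups) and open points are differentiated replicate 1. In each panel the open control point sits with LIGHT 2 and 3, and the open LIGHT point with control 2 and 3, as for Nfkb2 at 186 and 98.7 CPM.

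The canonical arm rose less evenly. Of its 21 listed genes 19 were tested, and 10 rose, 2 fell and 7 did not pass (median 0.32); Bcl2a1a was listed in no library. Nfkbie had 3.53 and 3.48 CPM in control 2 and 3 and 15.9 and 14.7 in LIGHT 2 and 3, a rise of 2.13 (SE 0.17, adjusted p = 2.26e-08). Nfkbia had 45.4 and 49.7 CPM against 80.6 and 91.9 and rose by 0.85. Vcam1, an adhesion molecule for leukocytes, had 47.6 and 45.8 CPM against 95.5 and 96.3 and rose by 1.04. In all 3 genes the pairs were well separated. Tnip1, which restrains NF-κB signalling, rose by 0.53. Against this direction, Tnfaip2 fell by 0.44 and Sod2, the mitochondrial superoxide dismutase, by 0.24.

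Chemokines and cytokines had the highest median after the noncanonical list of the 26 lists, 0.69. Of 36 genes 25 were tested; 12 rose and 2 fell, and Cxcl2, Cxcl14 and Il1b were listed in no library. Csf1, the growth factor of macrophages, had 76.5 and 75.2 CPM in control 2 and 3 and 138 and 130 in LIGHT 2 and 3, a rise of 0.82 (adjusted p = 3.37e-08). Ccl7, which draws monocytes, had 6.93 and 9.73 CPM against 18.1 and 15.4 and rose by 1.00. Cxcl10, whose promoter is printed above, was low throughout, at 0.122 and 0.272 CPM against 2.06 and 1.59, and rose by 3.15 (SE 0.45). The acute-phase gene Orm1 rose by 1.18 and the pattern recognition protein Ptx3 by 0.66. Lcn2 and Il11 fell by 0.50 and 1.84, and neither passed without LIGHT 2 (adjusted p = 0.0998 and 0.111).

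Other ligands and receptors of the TNF superfamily were called in both directions. Of 28 listed, 14 were tested, 2 rose (14.3%, beside 14.6% of all genes) and 3 fell (21.4%, beside 16.4%), with a median of -0.09; Tnfsf11, Fasl and Tnfrsf11a were listed in no library. Tnfsf12, the ligand TWEAK, had 26.9 and 24.2 CPM in control 2 and 3 and 39.8 and 37.3 in LIGHT 2 and 3, a rise of 0.59. The death receptor Tnfrsf21 had 11.7 and 9.24 CPM against 4.54 and 5.81 and fell by 1.02. The other calls were less firm. Tnfrsf12a, called lower, was not called with library totals (-0.10, adjusted p = 0.235) or a replicate block (-0.18, 0.0609). Fas, called higher, was at 0.37 without control 2 and 0.49 without LIGHT 3, and lost its call in both. Tnfrsf23, called lower, was at -0.35 without LIGHT 2 and not called. With library totals 4 members were higher, and with the stricter filter 6 were lower.

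Of the 37 genes of the interferon response and of class I antigen presentation, all tested, 13 rose and 1 fell (median 0.28). Those with the smallest p were of antigen presentation. B2m, the light chain of class I molecules, had 496 and 519 CPM in control 2 and 3 and 795 and 758 in LIGHT 2 and 3, a rise of 0.61 (adjusted p = 2.94e-07). The heavy chain H2-K1 rose by 0.54, the immunoproteasome subunit Psmb10 by 0.82 and the peptide loading factor Tapbp by 0.43. Stat2, which carries the interferon signal, fell by 0.47. With limma-voom, and without control 3 or LIGHT 3, 8 members were called higher.

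Adipocyte genes were in part lower with LIGHT. Of the 29 core genes 26 were tested, 10 fell, 1 rose and 15 did not pass, with a median of -0.12; Rbp4 was listed in no library. Slc2a4, the insulin-responsive glucose transporter GLUT4, had 83.8 and 84.5 CPM in control 2 and 3 and 44.5 in both LIGHT 2 and LIGHT 3, a fall of 0.92 (SE 0.09, adjusted p = 2.71e-07). Pparg, the master regulator, had 125 and 128 CPM against 92.8 and 103, and fell by 0.37 (SE 0.07, adjusted p = 0.000467). Cebpa, its partner, had 197 and 208 CPM against 217 and 204, pairs that overlapped (log2 fold change 0.06, SE 0.06, adjusted p = 0.539).

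Adipoq, the adipokine adiponectin, had 1311 and 1449 CPM in control 2 and 3 and 1000 and 1004 in LIGHT 2 and 3. It fell by 0.47 (SE 0.10, adjusted p = 0.00101). Fabp4, the fatty acid carrier, had 11135 and 11888 CPM against 7098 and 7398 and fell by 0.67 (SE 0.17, adjusted p = 0.00473). For both the pairs were separate, but DESeq2 did not call them (adjusted p = 0.432 and 0.177), and Fabp4 was not called without LIGHT 2 (0.0513). Cfd (adipsin) fell by 0.65, Dgat1 by 0.56, Fabp5 by 0.48 and Lipe, the hormone-sensitive lipase, by 0.45. Retn (resistin) rose by 0.42. The summed level of the 28 listed core genes was 30836 and 32748 CPM in control 2 and 3 and 25799 and 26376 in LIGHT 2 and 3, against 924 to 997 before differentiation. In bulk RNA, fewer fat cells and less of these transcripts per cell cannot be told apart.

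Thermogenic genes were mostly low. Of 33 genes 21 were tested, of which 3 passed the filter on low counts through 1 differentiated pair alone. Of the 21, 5 fell (23.8%, beside 16.4% of all genes) and 1 rose (4.76%, beside 14.6%), with a median of -0.42. Tbx1, Zic1 and Bmp7 were listed in no library. Cox7a1, a muscle and brown fat form of a cytochrome oxidase subunit, had 12.0 and 16.1 CPM in control 2 and 3 and 4.59 and 3.79 in LIGHT 2 and 3, a fall of 1.74 (SE 0.26, adjusted p = 4.74e-05). The potassium channel Kcnk3 had 84.1 and 87.4 CPM against 53.7 and 53.9 and fell by 0.68. Ebf2, a brown fat transcription factor, fell by 0.71. The other falls, of Ppargc1b and Cited1, were less firm. Ppargc1b was not called with library totals (-0.50, adjusted p = 0.0764) or a replicate block (-0.58, 0.0599). With any 1 of the 4 differentiated libraries left out, it was at -0.49 to -0.68 and not called. Cited1 was at -1.30 without control 2 and -1.13 without LIGHT 2, and lost its call in both. Ppargc1a went the other way, with 6.87 and 5.87 CPM against 11.8 and 9.73. It rose by 0.76 (SE 0.22, adjusted p = 0.0113), but did not pass without control 3 (adjusted p = 0.0974) or without LIGHT 2 (0.145).

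Nuclear genes of oxidative phosphorylation were lower almost throughout. All 50 were tested: 42 fell, none rose and 8 did not pass, with a median of -0.28 and a range from -0.57 to 0.05. Ndufs1, of complex I, had 232 and 229 CPM in control 2 and 3 and 154 and 158 in LIGHT 2 and 3, a fall of 0.56 (SE 0.05, adjusted p = 2.13e-07). Uqcrfs1, of complex III, had 426 and 421 CPM against 300 and 303 and fell by 0.49. Ndufa10 and Cycs (cytochrome c) fell by 0.57 and 0.56. Without control 3, the count of lower members was 25.

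The enzymes that feed this chain moved with it. All 35 genes of the citrate cycle and of fatty acid oxidation were tested; 26 fell and 1 rose, with a median of -0.35. Dld, a subunit shared by the pyruvate and oxoglutarate dehydrogenases, had 485 and 445 CPM in control 2 and 3 and 285 and 300 in LIGHT 2 and 3, a fall of 0.67 (SE 0.07, adjusted p = 7.65e-07). Pdhb, of pyruvate dehydrogenase, fell by 0.58, Etfa, which passes electrons from fatty acid oxidation, by 0.55 and Idh3a by 0.51. Cpt1a, the entry step for fatty acids into mitochondria, was called higher at 0.21 (adjusted p = 0.0443), and not by DESeq2 (0.0784) or without any 1 of the 4 differentiated libraries (0.0798 to 0.218).

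Genes of fat synthesis, lipid droplets and lipolysis were lower on balance. Both lists share members with the adipocyte core list, such as Dgat1 and Lipe. Of 25 tested genes of lipogenesis and triglyceride synthesis 11 fell and 2 rose (median -0.13). Of 19 tested genes of lipid droplets and lipolysis 10 fell and 1 rose (median -0.34). The filter on low counts was passed through LIGHT 2 and 3 alone by 1 of the 25, and through control 2 and 3 alone by 1 of the 19. Scd1, the stearoyl-CoA desaturase, had 1945 and 2198 CPM in control 2 and 3 and 1215 and 1294 in LIGHT 2 and 3, a fall of 0.73 (adjusted p = 1.47e-07). G0s2, an inhibitor of adipose triglyceride lipase, had 462 and 470 CPM against 263 and 274 and fell by 0.80. Hsd11b1, which reactivates glucocorticoid, fell by 0.91, Hilpda by 0.82 and Acss2 by 0.54. Against the majority, Thrsp rose by 0.37, Elovl6 by 0.27 and the lipase Ces1d by 0.82; Elovl6 was not called by DESeq2 (adjusted p = 0.0582) or without control 3, LIGHT 2 or LIGHT 3 (0.0604 to 0.27), nor Thrsp without control 2 (0.0751).

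Insulin and glucose genes followed, with 11 of 22 tested lower and 2 higher (median -0.27). Gys1, the glycogen synthase, had 510 and 534 CPM in control 2 and 3 and 319 and 354 in LIGHT 2 and 3, a fall of 0.64. Hexokinase Hk2 fell by 0.57 and Trib3, a pseudokinase that binds AKT, by 0.66. Akt1 and Irs1 rose by 0.27 and 0.35; Irs1 did not pass without control 2 (adjusted p = 0.0793) or LIGHT 2 (0.141).

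Cholesterol synthesis was lower, with 17 of 23 tested genes called lower and 1 higher (median -0.30). Lss, the lanosterol synthase, had 284 and 298 CPM in control 2 and 3 and 189 and 193 in LIGHT 2 and 3, a fall of 0.61 (SE 0.06, adjusted p = 4.07e-07). Hmgcs1, an early enzyme of the pathway, had 705 and 686 CPM against 476 and 504 and fell by 0.51, and Sqle fell by 0.43. Ebp, a sterol isomerase, rose by 0.47. Without LIGHT 2, 10 members were called lower.

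**Figure D2:**
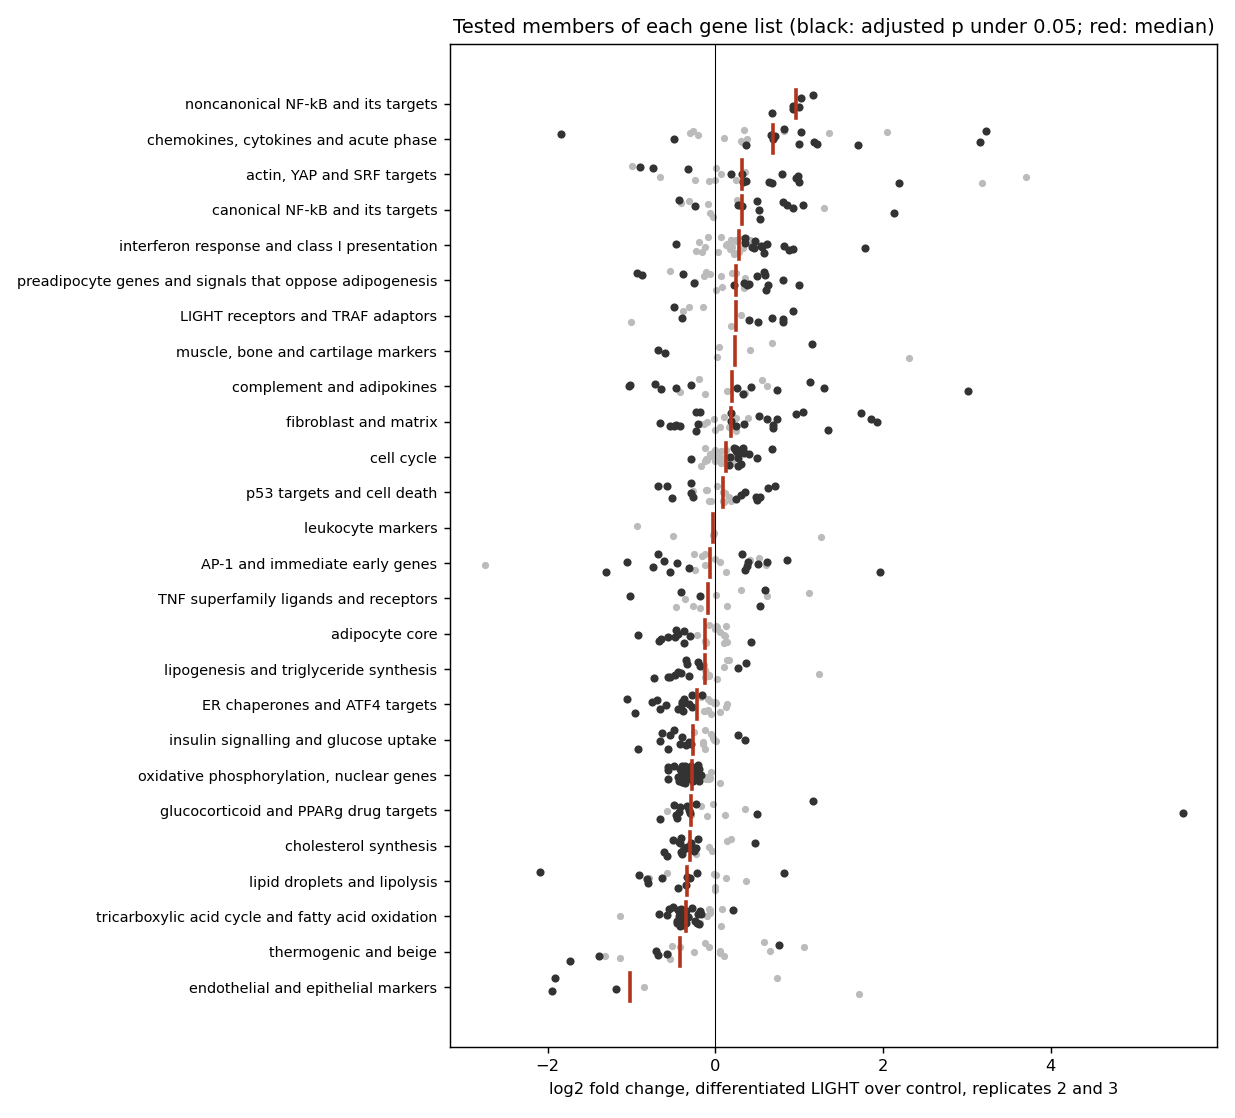
Log2 fold change (differentiated LIGHT over control, replicates 2 and 3) of the tested members of 26 gene lists; each point is 1 gene, black where the adjusted p was under 0.05, and red bars are list medians. The noncanonical NF-κB list has its 6 points between 0.67 and 1.16, and the 50 oxidative phosphorylation genes lie between -0.57 and 0.05.

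Matrix and fibroblast genes moved both ways: of 36, all tested, 15 rose and 9 fell, with a median of 0.19. The members ranged from -0.66 to 1.93. Those named here, taken by smallest p, all rose, and the 9 that fell are not named. Lum (lumican), a small proteoglycan, had 47.8 and 45.7 CPM in control 2 and 3 and 167 and 173 in LIGHT 2 and 3, a rise of 1.86 (SE 0.08, adjusted p = 4.38e-12). Dcn (decorin) had 171 and 176 CPM against 586 and 577 and rose by 1.74. Pdgfra, the receptor that marks fat precursors, had 94.8 and 99.8 CPM against 257 and 236 and rose by 1.34 (SE 0.08, adjusted p = 4.86e-10). The protease inhibitor Timp2 rose by 1.05 and the smooth muscle actin Acta2 by 0.96. With library totals 5 members were lower, and without control 3 or without LIGHT 3, 4. The summed level of the list was 41027 and 42135 CPM in control 2 and 3 and 45435 and 44314 in LIGHT 2 and 3.

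Among 28 tested preadipocyte genes and signals that oppose adipogenesis, 11 rose and 4 fell (median 0.24). The members named here, taken by smallest p, all rose, and the 4 that fell are not named. Foxa2 was listed in no library. Cyr61, a matrix-bound YAP target, had 43.6 and 43.8 CPM in control 2 and 3 and 88.0 and 86.8 in LIGHT 2 and 3, a rise of 1.00 (adjusted p = 1.6e-09). The transcription factors Twist1, Nr2f2, Sox9 and Id1 rose by 0.60, 0.58, 0.49 and 0.40. Of the 25 genes of actin, YAP and SRF signalling, 11 rose and 3 fell (median 0.32). Myl9, a myosin light chain, had 2.07 and 3.32 CPM against 13.4 and 11.4 and rose by 2.19 (SE 0.19). Flna and Cnn2, which bind actin, rose by 0.64 and 0.67. Tpm2, a tropomyosin, fell by 0.74 and Amotl2 by 0.33.

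Immediate early genes split evenly, with 8 of 28 tested higher and 8 lower (28.6% each, beside 14.6% and 16.4% of all genes). Their median was -0.06, and its sign changed with library totals (0.02) and in a fit of the differentiated libraries alone. Egr3 had 2.74 and 2.72 CPM in control 2 and 3 and 9.93 and 11.4 in LIGHT 2 and 3, a rise of 1.96 (adjusted p = 9.44e-08), and Junb rose by 0.85. Fosl1, the AP-1 subunit FRA-1, had 228 and 236 CPM against 87.9 and 102 and fell by 1.30 (SE 0.07, adjusted p = 1.22e-10). Ier5 rose by 0.62, and Gadd45a and Fosl2 fell by 0.68 and 0.54.

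ER chaperones and ATF4 targets fell in 15 of 28 tested genes and rose in none (median -0.22). Chac1, which degrades glutathione, had 160 and 153 CPM in control 2 and 3 and 80.1 and 81.3 in LIGHT 2 and 3, a fall of 0.96 (SE 0.06, adjusted p = 1.33e-09). Xbp1, a transcription factor of the unfolded protein response, fell by 0.70, Ddit3 (CHOP) by 0.76, the chaperone Hsp90b1 by 0.59 and Atf4 itself by 0.45. With library totals 1 member was higher.

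Of 20 tested genes induced by glucocorticoid or PPARγ drugs, 10 fell and 3 rose (median -0.29). The 20 include 1 that passed the filter on low counts through LIGHT 2 and 3 alone. Angptl4, a PPAR target, fell by 0.47. The glucocorticoid-induced kinase Sgk1 had 37.8 and 38.3 CPM in control 2 and 3 and 82.1 and 88.8 in LIGHT 2 and 3, a rise of 1.16 (adjusted p = 1.26e-09). Tsc22d3 (GILZ) rose by 0.50.

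Complement genes and adipokines moved both ways, with 7 of 20 tested genes higher and 6 lower (median 0.20, and negative, at -0.13, with the stricter filter); C1qa, Cfi and Rbp4 were listed in no library. The complement proteases C1ra and C1s1 rose by 1.30 and 1.13, C1ra from 31.7 and 33.0 CPM to 79.0 and 80.4. C3, the central complement protein, had 865 and 918 CPM in control 2 and 3 and 1479 and 1508 in LIGHT 2 and 3, a rise of 0.74 (SE 0.09). Nampt (visfatin) fell by 1.02, from 390 and 355 CPM to 176 and 193, and Rarres2 (chemerin) by 0.72. Cfd, a complement protease, fell, as given above. The 20 tested genes include 1 that passed the filter on low counts through LIGHT 2 and 3 alone.

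Of 38 cell cycle genes, all tested, 15 rose, 1 fell and 22 did not pass (median 0.12). Mcm4, of the replicative helicase, had 52.2 and 53.4 CPM in control 2 and 3 and 84.1 and 84.6 in LIGHT 2 and 3, a rise of 0.67 (SE 0.07, adjusted p = 5.63e-07). Mcm5, Mcm6, Foxm1 and Tyms rose by 0.40, 0.30, 0.49 and 0.34, and Top2a fell by 0.29. The count of higher members was 8 without control 2 and 9 without LIGHT 2. Of 26 tested p53 targets and cell death genes, 8 rose (30.8%, beside 14.6% of all genes) and 6 fell (23.1%, beside 16.4%), with a median of 0.09. Among them were Bid with a rise of 0.63 and Casp8 with a fall of 0.58. Pmaip1 was listed in no library.

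Markers of other cell types were examined next. Of 22 leukocyte markers 5 were tested and none passed; their median was -0.03, and 0.05 with library totals. Of 8 tested muscle, bone and cartilage markers, 1 was called higher (12.5%, beside 14.6% of all genes) and 2 lower (25.0%, beside 16.4%). Their median was 0.23, and -0.29 with the stricter filter. Spp1 (osteopontin) and Des (desmin) fell by 0.60 and 0.68 and Comp was called higher at 1.15. Myod1, Myf5, Actc1 and Acan were listed in no library. The call for Comp was lost without any 1 of the 4 differentiated libraries (adjusted p = 0.0781 to 0.185). The summed level of the 17 listed markers was 200 and 185 CPM in control 2 and 3 and 137 and 140 in LIGHT 2 and 3. Of 6 tested endothelial and epithelial markers (median -1.02), 1 passed the filter on low counts through control 2 and 3 alone. The keratins Krt19, Krt8 and Krt18 fell by 1.19, 1.91 and 1.95. With any 1 of the 4 differentiated libraries left out, Krt18 fell by 1.83 to 2.10 and was not called. The summed level of the 14 listed was 23.6 and 21.1 CPM against 9.56 and 8.32. Tie1, Epcam and Cldn4 were listed in no library. Whether these markers have a part in the changes above was not tested.

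The largest single changes were sought among called genes whose higher pair averaged 5 CPM or more and whose pairs were separate, and 12 were taken each way. The rises included Mmp9 (gelatinase B), a known NF-κB target. Mmp9 had 4.80 and 6.30 CPM in control 2 and 3 (5.55 ± 1.06, SD, n = 2) and 104 and 101 in LIGHT 2 and 3 (103 ± 1.98, SD, n = 2). It rose 18.4-fold, by 4.20 on the log2 scale (SE 0.13, adjusted p = 6.81e-14), the smallest adjusted p of the comparison. Control 1 had 112 CPM and LIGHT 1 had 4.53.

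Frmpd4, a scaffold protein of synapses, had 1 count over control 2 and 3 and 473 over LIGHT 2 and 3, a ratio of 467 with an exact counting interval of 83.5 to 18493 (95%), which covers counting error only. Akr1c12, an aldo-keto reductase, had 0.669 and 0.598 CPM against 8.34 and 6.98 and rose by 3.59. Rtn4r, the Nogo receptor, rose by 3.38, the matrix protein Fbln7 by 3.25 and the neuropeptide Y receptor Npy1r by 3.18. Spib, an ETS factor known from B cells and from the epithelial cells over gut lymphoid tissue, had 0.973 and 1.14 CPM against 7.76 and 7.65 and rose by 2.85 (SE 0.42). The glutamate receptor subunit Gria3 rose by 2.84 and Thsd7a by 2.57. In each of these genes control 1 lay at the level of LIGHT 2 and 3.

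The largest falls held 2 imprinted genes. Peg3, a zinc finger gene expressed from the paternal allele, had 16.3 and 15.9 CPM in control 2 and 3 and 1.74 and 2.57 in LIGHT 2 and 3, a fall of 2.91 (SE 0.18, adjusted p = 4.86e-10). H19, a non-coding RNA of the maternal allele, had 8.81 and 6.58 CPM against 1.58 and 1.10 and fell by 2.50. Aebp1, a transcriptional regulator and matrix protein of fibroblasts, had 29.8 and 31.4 CPM against 6.44 and 5.08 and fell by 2.40 (SE 0.13, adjusted p = 1.03e-10).

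Others were of genes nearly absent before differentiation. Adgrf5, an adhesion receptor, had 30.5 and 30.6 CPM against 3.17 and 6.12 and fell by 2.74. Ghrh, growth hormone-releasing hormone, had 48.7 and 38.0 CPM against 10.0 and 11.1 and fell by 2.04, and Selenbp1 fell by 1.95. Pnpla3, a lipid droplet acyl hydrolase, had 6.50 and 9.40 CPM against 1.95 and 1.77 and fell by 2.09. These 4 genes had at most 0.691 CPM in any undifferentiated library. Crip1, Baiap2l1, Itgad and Als2cl fell by 3.23, 2.46, 2.25 and 2.14.

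Tmem254b and Tmem254c, near-identical copies, stood at both ends and are uncertain. Tmem254b had 0 and 0.707 CPM in control 2 and 3 and 41.1 and 40.5 in LIGHT 2 and 3, while Tmem254c had 55.1 and 51.2 against 1.11 and 1.90. Reads of such copies can be assigned to either. In the undifferentiated LIGHT libraries, Tmem254b had 38.8, 38.5 and 0 CPM and Tmem254c 2.01, 2.93 and 41.3. DESeq2 and limma-voom did not call Tmem254b (adjusted p = 0.0941 and 0.31).

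**Figure D3:**
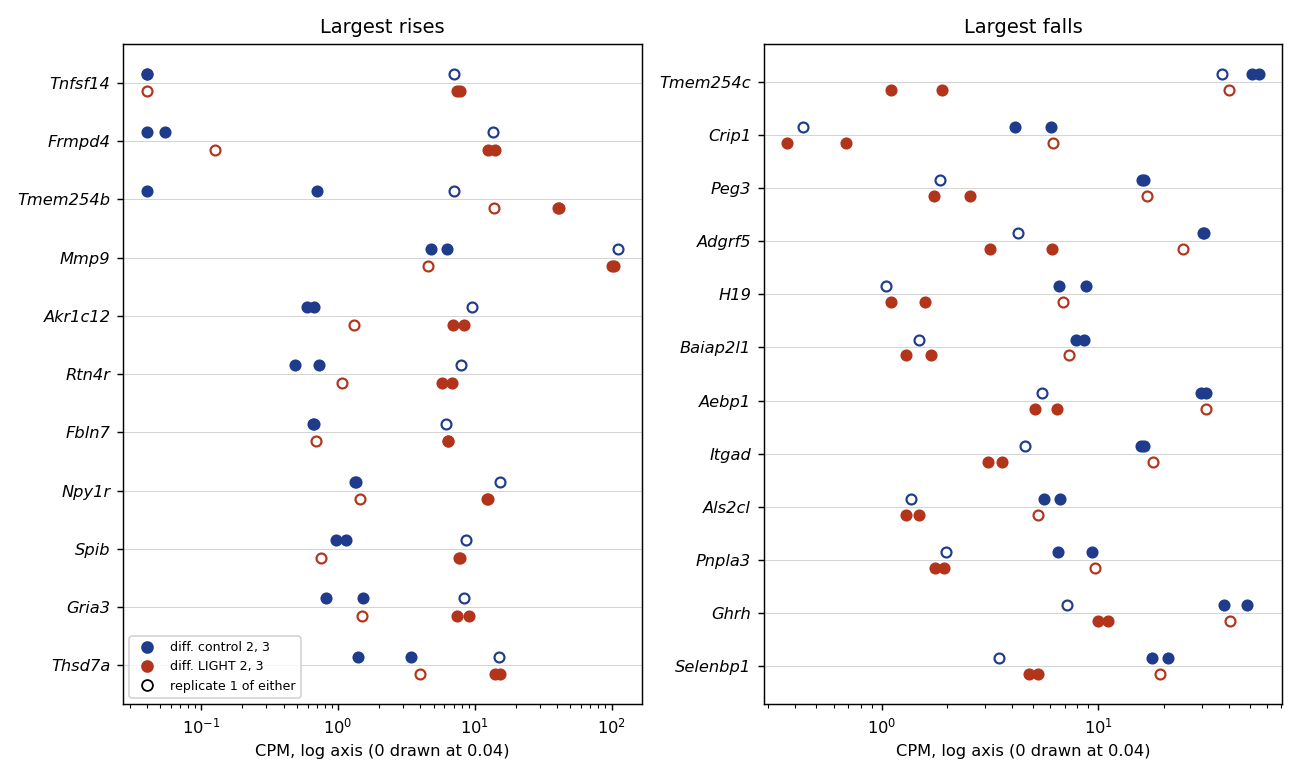
CPM (log axis, 0 drawn at 0.04) in the 6 differentiated libraries for the largest rises and the largest falls of the comparison of replicates 2 and 3; filled points are replicates 2 and 3 and open points replicate 1, blue for control and red for LIGHT. For Mmp9 the open blue point, at 112 CPM, lies with the filled red points at 104 and 101.

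Undifferentiated cells give a comparison of LIGHT and control cells that shares no library with this one. There, of the same 13150 genes, 2935 were higher with LIGHT (22.3%) and 2901 lower (22.1%). Of genes called higher, 831 were so at both stages, 43.2% of those after and 28.3% of those before differentiation. Of genes called lower, 696 were shared, 32.3% of those after and 24.0% of those before. Another 755 genes were called at both stages in opposite directions.

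The difference between the stages was itself tested: the log2 fold change for LIGHT was larger, that is more positive, after differentiation in 1964 genes (14.9%) and smaller, more negative, in 2113 (16.1%). With library totals, 65.4% of these calls were larger, against 48.2%. Of the 6 noncanonical NF-κB genes 5 had a larger effect after differentiation and 1 a smaller one, and of the 19 canonical genes 6 and 1. Nfkb2 differed by 0.48 between stages (SE 0.10, adjusted p = 0.000706), Relb by 0.48 (SE 0.13) and Ltbr by 0.26 (SE 0.07). Cxcl12, at 422 to 467 CPM in all 6 undifferentiated libraries, differed by 1.07 (SE 0.07, adjusted p = 6.48e-09). For Enpp2 the effect shrank, from 2.24 before to 1.16 after.

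Among list genes, the chemokines turned over: 4 were higher and 9 lower before differentiation, against 12 and 2 after. Csf1 was at -0.83 before and 0.82 after, Ccl7 at -0.67 and 1.00, and Ptx3 at -0.71 and 0.66. A larger effect after differentiation was called in 11 of the 25 and a smaller one in 1.

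Cell cycle genes did the same. None of the 38 was higher and 30 were lower before differentiation, with a median of -0.29, and 28 had a larger effect after it. Mcm4 was at -0.31 before and 0.67 after. The actin, YAP and SRF list went from 3 higher and 17 lower to 11 and 3, with a larger effect after differentiation in 15 genes and a smaller one in none.

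Oxidative phosphorylation and sterol genes went the other way. Before differentiation 13 of the 50 oxidative phosphorylation genes were higher and 12 lower (median 0.02), and 35 had a smaller effect after it. Of the 35 citrate cycle and fatty acid oxidation genes, 23 had a smaller and 1 a larger effect. Of the 23 sterol genes 20 were higher and none lower before, with a median of 0.58, and 21 had a smaller effect after. Lss was at 0.36 before and -0.61 after, and Hmgcs1 at 0.61 and -0.51. The 37 interferon and class I genes were called more often before differentiation, with 28 higher and 1 lower (median 0.46), against 13 and 1 after. Of these genes, 7 had a smaller effect after differentiation and 4 a larger one.

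Adipocyte core genes differed between stages in both directions. The list's median was -0.18 before and -0.12 after, with a larger effect after differentiation in 2 of 26 genes and a smaller one in 7. Lipe was at 0.96 before and -0.45 after (stage difference -1.41, adjusted p = 1.81e-07), and Cebpa at 0.77 and 0.06 (-0.71). Pparg was lower at both stages, by 0.72 before and 0.37 after on the log2 scale, a stage difference of 0.35 (SE 0.11, adjusted p = 0.0267). Slc2a4, at -2.96 before and -0.92 after, was not called for a stage difference, nor were Adipoq (-0.01, SE 0.34) and Fabp4 (-0.02, SE 0.26).

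**Figure D4:**
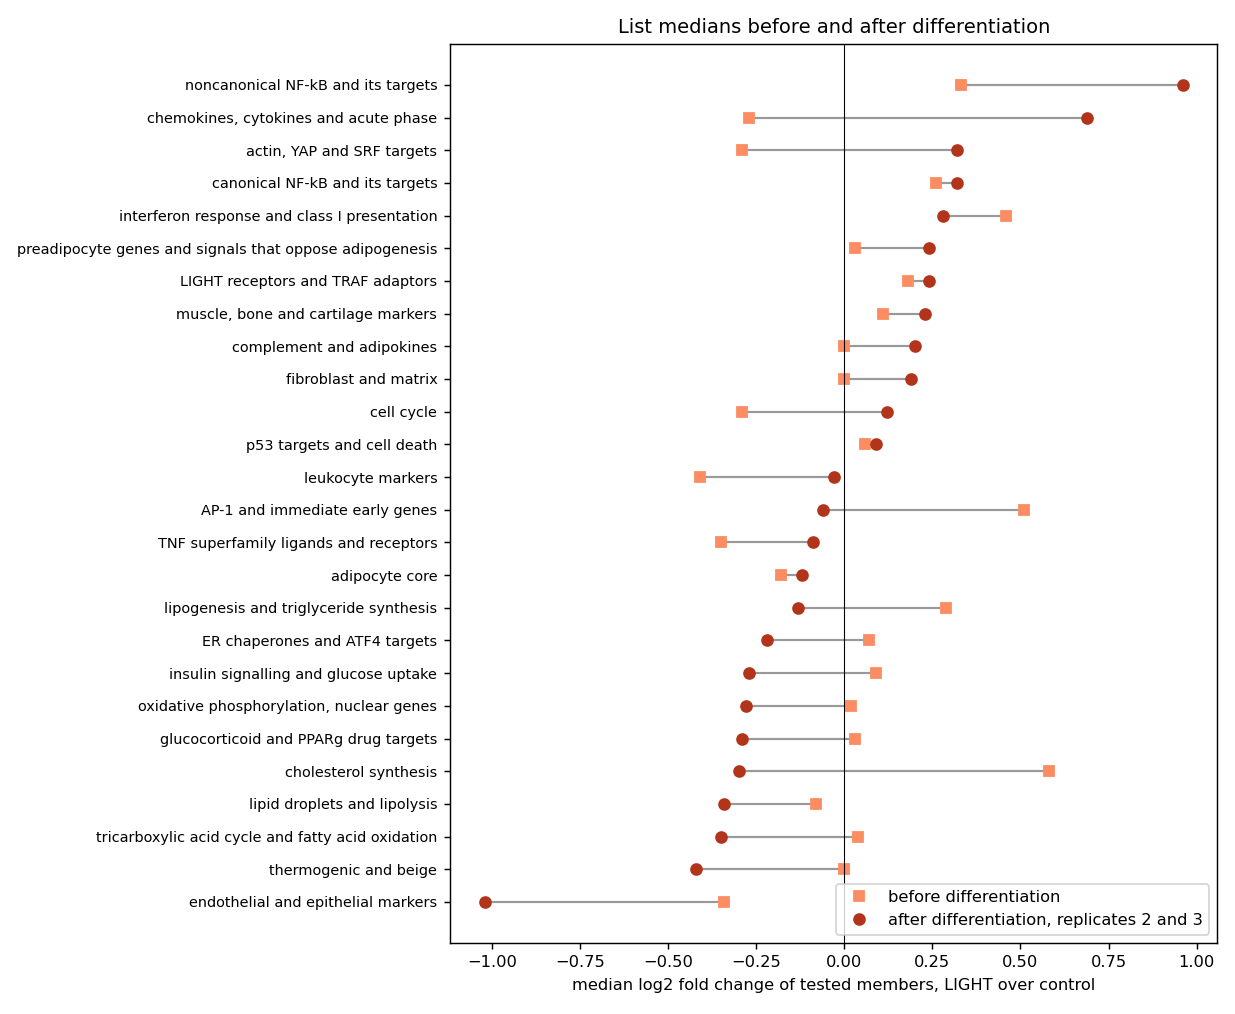
Median log2 fold change (LIGHT over control) of the tested members of each of the 26 lists before differentiation (squares) and after it in replicates 2 and 3 (circles). The median of cholesterol synthesis moves from 0.58 to -0.30 and that of the chemokine list from -0.27 to 0.69.

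**Figure D5:**
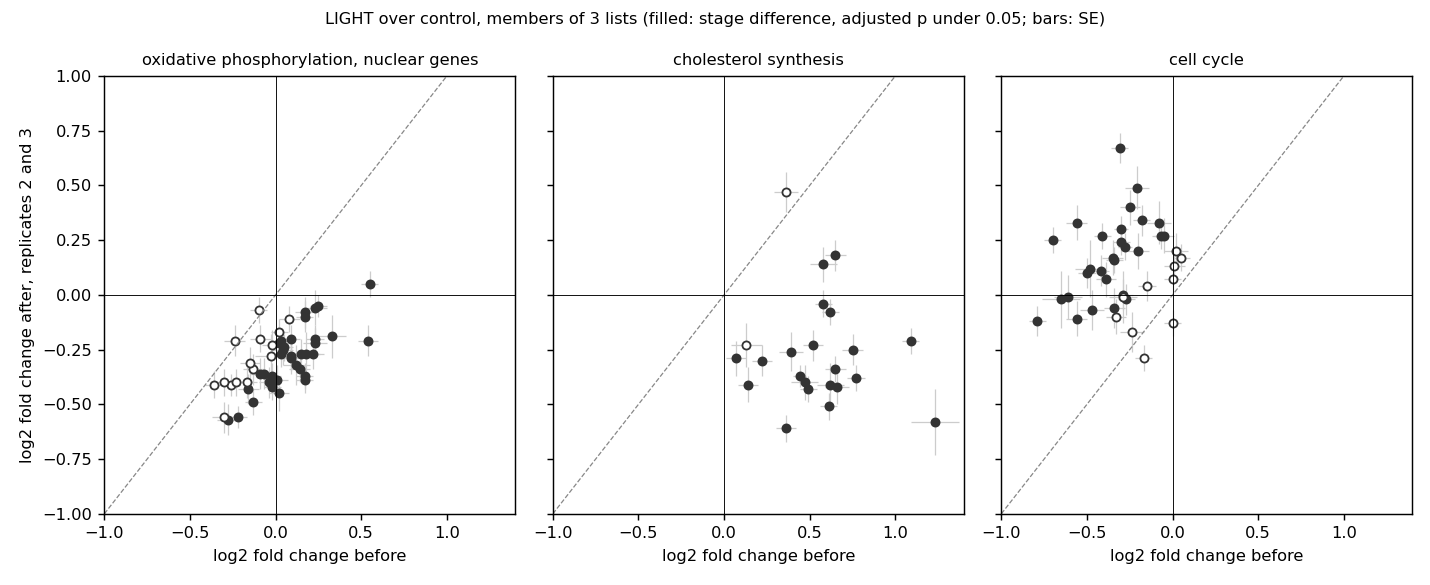
Log2 fold change (LIGHT over control) before differentiation (horizontal) and after it in replicates 2 and 3 (vertical) for the members of 3 lists; bars are SE, filled points passed the test of the stage difference and the dashed line marks equal effects. Of the oxidative phosphorylation genes 35 of 50 are filled and of the sterol genes 21 of 23, below the line, and of the cell cycle genes 28 of 38, above it.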

How the data were processed

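Total RNA of 12 3T3-L1 samples was made into libraries by Illumina protocols, per the labels. The authors had computed, before they deposited them, an expected count and an FPKM value for each gene of a library, per the file headers. No source here names the aligner, the counter or the use of strand. The build mm8 is named in the submitters' processing notes. A gene missing from a table was counted as 0, expected counts were rounded, and 18255 genes were listed in any library. FPKM as deposited was used only to set levels of different genes side by side.

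Tests were edgeR 4.0.16 quasi-likelihood fits (R 4.3.3) with trimmed-mean scaling, a filter at a minimum count of 10 and Benjamini-Hochberg adjustment at 0.05 over all genes. The comparison as labelled used all 12 libraries. The comparison of replicates 2 and 3, that before differentiation and the stage difference used 10, without the differentiated libraries of replicate 1, so that they share 1 estimate of spread. The code was tested on simulated data. DESeq2 1.42.0, limma-voom (limma 3.58.1), other scalings, filters, a replicate block and leaving out libraries were alternatives. Distances of replicate 1 used log2 of CPM plus 0.5.

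The members, the 26 gene lists and the tests were chosen with earlier results of these data known. Named genes were a fixed set, the 12 largest rises and falls with a mean of at least 5 CPM and separate pairs, up to 6 called members of each list by p, those against the majority where 3 or fewer, members listed nowhere, other-cell markers, and the 4 largest stage differences each way. Of 721 list entries, 690 were found. Besides the thermogenic list, the lipogenesis, the glucocorticoid and PPARγ drug and the complement lists each had 1 tested member that passed the filter through LIGHT 2 and 3 alone. The lipid droplet list and the endothelial and epithelial list each had 1 that passed it through control 2 and 3 alone. Some genes that the rule names are not reported here.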

Additional observations from a re-analysis of the deposited data

Results flagged for a closer look

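The difference between LIGHT and control cells changed with the stage, by the test of that change itself, for the following genes. The value given is the log2 fold change after minus that before differentiation. It was positive for Ltbr (0.26), Nfkb2 (0.48), Relb (0.48), Cxcl12 (1.07), Pparg (0.35), Ppargc1a (1.47), Mmp9 (1.96), Npy1r (2.12), Rtn4r (3.43), Fbln7 (2.99), Thsd7a (1.60) and Vstm2a (3.85). It was negative for Cebpa (-0.71), Peg3 (-1.67), H19 (-3.62), Aebp1 (-0.49), Als2cl (-1.17) and Fosb (-3.85). Vstm2a had 2.00 to 2.59 CPM in undifferentiated control and 0.157 to 0.591 in undifferentiated LIGHT, against 3.95 and 3.64 in control 2 and 3 and 8.02 and 7.53 in LIGHT 2 and 3 after differentiation. Fosb had 1.38 to 1.56 CPM against 9.26 to 22.7 before differentiation and 1.35 to 2.01 CPM in those 4 libraries after it.

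For some genes 1 group was at or near 0, so that the fitted size depends on the prior count: Olr1 (6.96), Gpt (-6.17) and Itgad (-4.41). Olr1, a receptor for oxidised LDL, had 0.344 to 1.06 CPM in undifferentiated control, 0 in undifferentiated LIGHT and 17.2 to 23.1 in replicates 2 and 3 after differentiation. Gpt, an alanine aminotransferase, had 56.3 and 62.3 CPM in control 2 and 3 and 34.4 and 35.9 in LIGHT 2 and 3. The copy Tmem254c differed by -3.94.

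The ribosomal RNA gene Rn18s differed by 4.60 between stages. After differentiation it had 0 and 1.79 CPM in control 2 and 3 and 1.53 and 4.41 in LIGHT 2 and 3, pairs that overlapped and did not pass (log2 fold change 1.64, adjusted p = 0.162). Rn28s1 had 9.97 and 8.15 CPM against 13.5 and 17.7 (0.78, adjusted p = 0.00406), and Rn45s had 25.8 and 32.0 against 32.8 and 41.9 (0.36, adjusted p = 0.0202). In control 1 and LIGHT 1, Rn28s1 had 7.75 and 20.1 CPM, Rn18s 0.558 and 8.12, and Rn45s 41.6 and 34.2. Unlike most called genes, Rn28s1 and Rn18s thus differed in replicate 1 in the same direction as in replicates 2 and 3. Rn45s differed in the opposite one. The part of these ribosomal RNAs in other changes was not tested.

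More than 50% of the tested members differed between stages in 13 lists, with both directions counted together. Over all 13150 tested genes, 14.9% had a larger effect after differentiation and 16.1% a smaller one. The lists were noncanonical NF-κB (6 of 6 genes), oxidative phosphorylation (35 of 50), citrate cycle with fatty acid oxidation (24 of 35), lipogenesis (16 of 25) and insulin signalling (14 of 22). Others were cholesterol synthesis (21 of 23), fibroblast and matrix (19 of 36), immediate early genes (23 of 28), actin, YAP and SRF targets (15 of 25) and cell cycle (28 of 38). The rest were p53 targets (16 of 26), ER chaperones and ATF4 targets (17 of 28) and glucocorticoid and PPARγ drug targets (13 of 20). In some the directions were mixed, with 6 larger and 10 smaller among p53 targets and 10 and 9 among fibroblast and matrix genes.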

How the results depend on the processing

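The comparison of replicates 2 and 3 kept both counts of called genes within 1.5 times under other scalings, filters, DESeq2 (1712 higher, 1982 lower) and limma-voom. Library totals gave 2864 higher and 1477 lower, and a fold threshold of 1 on the log2 scale 221 and 237. With 1 library left out, higher genes numbered 1241 to 2011 and lower genes 1320 to 2284; the largest drops were 1241 higher without control 2, and 1248 higher and 1320 lower without LIGHT 2, where the lone sample is assumed to vary like the other groups. As labelled, DESeq2 called 1 gene, and leaving out any differentiated library gave 0. Replicate numbers did not pair the samples (correlation of deviations -0.0344); with a replicate block 1850 genes were higher and 2082 lower after differentiation, 2851 and 2821 before, and 1874 and 2010 for the stage difference. Of 181 called genes named by the rule or in the lists added later, 157 kept their call in every alternative fitted; none of the 3530 values reversed. With 2 libraries a side, small effects and low counts set the limit.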

Other observations

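The falls of Peg3 and H19 led to a look at 15 imprinted genes of growth control, chosen after their values had been seen. Of 11 tested, 3 fell and 3 rose after differentiation in replicates 2 and 3 (27.3% each, beside 16.4% and 14.6% of all genes). Igf2, the growth factor that shares its locus with H19, fell by 1.24 (adjusted p = 2.71e-07), beside Peg3 and H19. Ndn (necdin) rose by 0.90, Sgce by 0.34 and Dlk1 by 0.22; the call for Dlk1 was lost without control 2, LIGHT 2 or LIGHT 3 (adjusted p = 0.0509 to 0.128). Before differentiation H19 was at 1.12 and Igf2 at -1.03. The median of the 11 was 0.15.

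Aldo-keto reductases of the AKR1 family were also chosen after the rise of Akr1c12 had been seen. Of 10 tested members, 4 were higher, Akr1c12 among them (40.0%, beside 14.6% of all genes), and none was lower. Akr1c12, at 3.59 after differentiation, was at 3.73 before it. Akr1c14 rose by 0.95 and Akr1b3 by 0.44. Akr1a1, also called higher, was at 0.15 to 0.21 with any 1 of the 4 differentiated libraries left out, and was then not called. Copies within the family are close in sequence, so reads may be split between them.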
